A study of Mus musculus with 54 samples.

Results

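Blnk, Btk, Blk, Dok3, Pik3ap1 and Rasgrp3 encode kinases, adaptors and an exchange factor that work just inside the membrane below the pre-B-cell receptor. Their chromatin was taken as every region that the deposited tables assign to these 6 symbols by nearest transcription start, promoter and distal alike. That gave 28 of the 4829 regions, and 6 of the 1787 genes, in the table of accessible regions. Blk held 8 of them, Blnk 7, Btk 5, Pik3ap1 4, Dok3 2 and Rasgrp3 2.

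The groups were E2A-KO, Ebf1-KO and Wt progenitors of C57BL6/J mouse fetal liver. All were expanded on OP9 stromal cells with KIT ligand, FLT3 ligand and IL-7. A further set of Ebf1-KO cells carried the retroviral vector pMiG-Ebf1ER, an Ebf1 protein switched on by 4-hydroxytamoxifen (4OHT), and was sampled at 0, 6, 24 and 72 h, with no 4OHT-treated cells without Ebf1ER among the samples. The 230-238 line, a progenitor B line transformed by Abelson virus, supplied the list of Ebf1-bound regions, a list of accessible regions and the contact map, so Ebf1 binding in the fetal liver cells was not measured. Every group in the region tables was 1 column, either a pool of libraries or 1 library, and nothing in the labels places replicates in separate animals, so no test across samples could be made. Intervals below are exact 95% intervals and hold counting error only. Values are tags per region scaled to 10000000 tags per library, with library totals between 24557525 and 196071042 tags, and they are levels of whole regions unless a value is given per kb. The regions lay near genes on a Wt-enriched list drawn up by the authors, so lower signal in a knockout is not independent evidence of its direction. All 4829 regions, the 28 among them, also matched an accessible region of the 230-238 line to within 1 bp at both ends. The comparison therefore holds no region outside the list of that progenitor B line. In the 230-238 line, 8 of 9 progenitor B marker genes had an accessible region within 1 kb of their start. The same held for 2 of 7 T-cell markers (Cd3g and Lck) and for 0 of 4 natural killer, 0 of 4 erythroid, 0 of 4 myeloid and 0 of 4 stromal markers. In the Wt progenitors, Fli1 peaks lay within 1 kb of the start of 2 of 9 progenitor B markers, 1 of 7 T-cell, 1 of 4 natural killer, 1 of 4 erythroid, 0 of 4 myeloid and 1 of 4 stromal markers.

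The pre-B-cell receptor joins an immunoglobulin heavy chain to the surrogate light chain made from the Vpreb and Igll1 genes, and it signals through Cd79a and Cd79b. Src-family kinases such as Blk phosphorylate the Cd79 tails, Syk is recruited, and the adaptor Blnk then brings the kinase Btk to phospholipase C. Pik3ap1 couples the receptor complex to phosphoinositide 3-kinase, Rasgrp3 answers diacylglycerol by loading Ras with GTP, and Dok3 is an adaptor that restrains the signal. Loss of Blnk or Btk is known to disturb the passage through the pre-B stage.

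The promoters of Blnk, Btk, Dok3 and Pik3ap1 are shown because each RefSeq start lay inside an accessible region whose values are given below. The letters are the 250 bases before the start, 5′ to 3′ and ending next to it, from RefSeq on GRCm38.p6. Capitals mark matches on either strand to CCCNNGGG (the core of the Ebf1 motif), CAGCTG or CACCTG (E-boxes of the kind E2A proteins bind), GGAAGT (an ETS core, the family of Fli1) or TGGGAA (an Ikzf1 core).
Blnk (chr19:40994222-40994471, minus strand): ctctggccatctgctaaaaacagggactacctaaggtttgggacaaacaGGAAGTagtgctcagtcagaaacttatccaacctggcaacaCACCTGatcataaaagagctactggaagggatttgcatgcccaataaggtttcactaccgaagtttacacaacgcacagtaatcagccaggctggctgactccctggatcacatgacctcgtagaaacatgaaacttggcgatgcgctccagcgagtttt
Btk (chrX:134583141-134583390, minus strand): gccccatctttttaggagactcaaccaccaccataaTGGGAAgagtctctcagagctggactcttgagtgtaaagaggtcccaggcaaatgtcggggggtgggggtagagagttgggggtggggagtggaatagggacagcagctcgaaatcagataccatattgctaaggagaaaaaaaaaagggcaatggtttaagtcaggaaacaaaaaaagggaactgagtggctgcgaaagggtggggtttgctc
Dok3 (chr13:55528539-55528788, minus strand): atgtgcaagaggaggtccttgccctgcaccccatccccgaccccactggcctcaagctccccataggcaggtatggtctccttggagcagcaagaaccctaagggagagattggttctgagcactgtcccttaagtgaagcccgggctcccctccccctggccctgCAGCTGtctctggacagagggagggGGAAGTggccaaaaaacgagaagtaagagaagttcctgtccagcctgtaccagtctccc
Pik3ap1 (chr19:41385103-41385352, minus strand): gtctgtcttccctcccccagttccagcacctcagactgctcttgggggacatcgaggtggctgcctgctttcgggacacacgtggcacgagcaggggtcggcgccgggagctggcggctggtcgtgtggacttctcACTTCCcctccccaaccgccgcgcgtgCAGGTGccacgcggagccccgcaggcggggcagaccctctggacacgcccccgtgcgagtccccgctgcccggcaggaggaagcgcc
Dok3 held CAGCTG at -84 and GGAAGT at -59, counted from the first transcribed base as 1. Blnk held CACCTG at -160 and GGAAGT at -201, Pik3ap1 held CAGGTG, the reverse complement of CACCTG, at -87 and ACTTCC, the reverse complement of GGAAGT, at -114, and Btk held TGGGAA at -214. Within the 50 bases after the start, which are not printed, lay a further ACTTCC in Blnk (at 1) and a CAGCTG in Pik3ap1 (at 23). None of these windows, nor the 2 Rasgrp3 promoters, held CCCNNGGG. The only match in the first Rasgrp3 promoter (chr17:75435655-75435954) was GGAAGT at -48, and the second (chr17:75465288-75465587) held none. Among 32815 RefSeq promoter windows of the same length, CCCNNGGG occurred in 13.7%, CAGCTG in 16.3%, CACCTG in 20.2%, GGAAGT in 23.8% and TGGGAA in 25.6%. Different motifs can share letters, such as TGGGAA and GGAAGT, and no matches here overlapped. RefSeq promoters matched 5 of the 6 symbols, and Blk was not among them. The letters in a window are a description and show no binding.

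Accessibility in E2A-KO progenitors was lower than in Wt at most of these regions, with the lowest ratios at Rasgrp3 and in intron 5 of Btk. On the log2(value + 1) scale, 17 of the 28 regions were at least 2-fold lower in E2A-KO, where 37.6% of all 4829 regions were, and 0 were at least 2-fold higher, where 1.01% of all were. The median log2 ratio was -1.35 over the 28 regions and -0.76 over all regions. Because all regions shifted, TMM scaling, which sets the typical region to no change, was computed as well. With it 9 of the 28 were at least 2-fold lower (14.8% of all), 2 were higher (5.90% of all), and the medians were -0.52 and 0.02. In bulk cells, fewer cells with an open region and less opening per cell cannot be told apart.

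**Figure D1:**
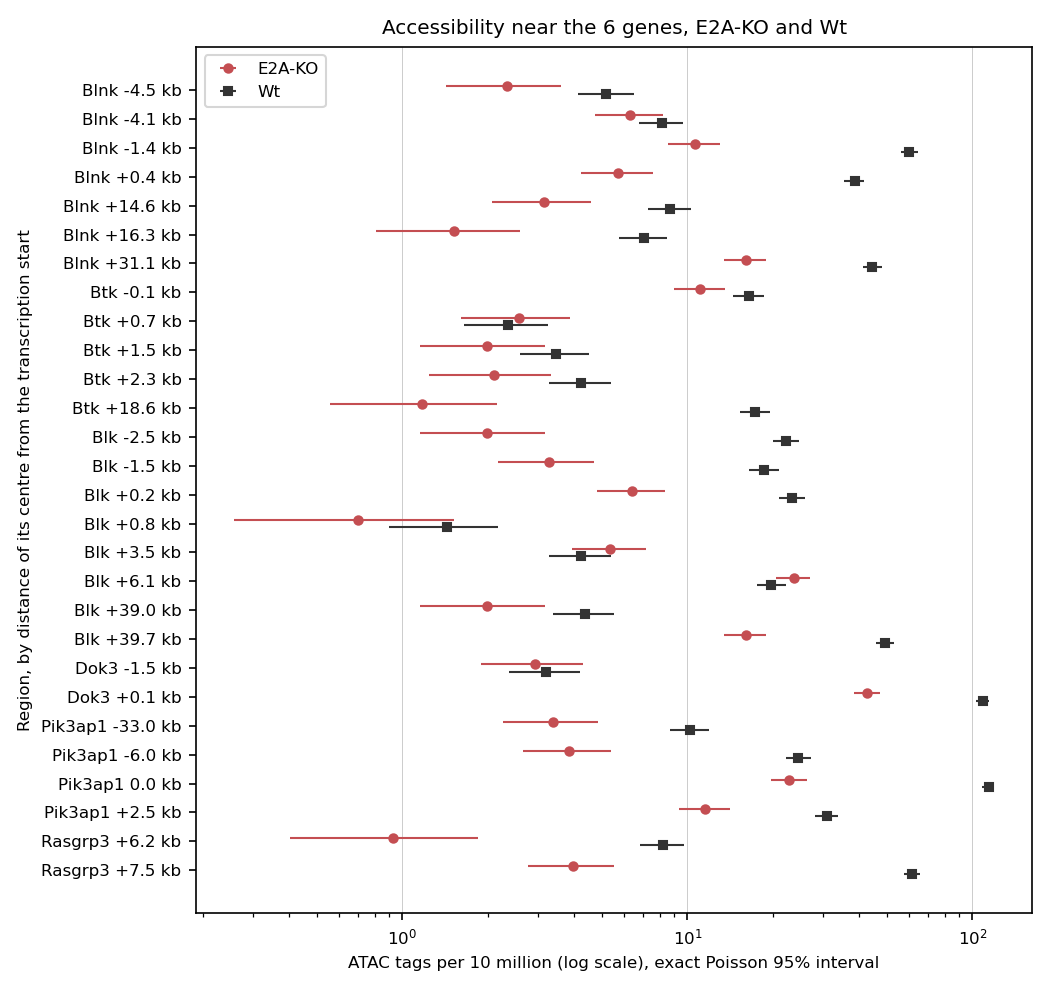
Accessibility of the 28 regions, in tags per 10000000 on a logarithmic horizontal axis, in E2A-KO (circles, upper of each pair) and Wt (squares), grouped by gene down the page, with exact 95% counting intervals. Both Rasgrp3 regions and all 4 Pik3ap1 regions lay at least 2-fold lower in E2A-KO on the log2(value + 1) scale, whereas 4 of the 5 Btk regions differed by less on that scale.

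The kinase Btk was split between its intron 5 region and its other regions, the promoter among them. The promoter region of Btk (chrX:134582815-134583577) had 11.1 tags in E2A-KO and 16.4 in Wt, a 1.48-fold lower level (interval 1.16 to 1.89). That direction turned with TMM scaling, which gave a log2 ratio of 0.31. The region in intron 5 (chrX:134564332-134564704), 18.6 kb inside the gene, had 1.17 tags in E2A-KO and 17.3 in Wt, 14.8-fold lower (7.94 to 31.3). The 3 small regions of Btk between the 2 had 1.98 to 2.56 tags in E2A-KO and 2.34 to 4.23 in Wt, and none reached a 2-fold ratio on the log2(value + 1) scale. Without the added 1, the region at 2.3 kb was 2.01-fold lower (1.18 to 3.61).

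Blk, the Src-family kinase, was lower at its start and upstream and not within its first intron. The upstream regions had 1.98 tags in E2A-KO and 22.2 in Wt at -2.5 kb (chr14:63419474-63419837; 11.2-fold lower, 6.88 to 19.4), and 3.26 in E2A-KO and 18.6 in Wt at -1.5 kb (chr14:63418416-63418984; 5.7-fold, 3.86 to 8.73). The region over its first exon (chr14:63416614-63417427), annotated as 5′ UTR, had 6.41 tags in E2A-KO and 23.2 in Wt. In intron 10, 39.7 kb from the start (chr14:63377132-63377826), it had 16.0 in E2A-KO and 49.2 in Wt, 3.08-fold lower (2.57 to 3.72). The intron 1 region 6.1 kb from the start (chr14:63410408-63411851) went against these, with 23.6 tags in E2A-KO and 19.7 in Wt, a ratio of 1.2 (0.995 to 1.43). It and the neighbouring region 3.5 kb from the start, with 5.36 tags in E2A-KO and 4.23 in Wt, were the 2 regions called higher with TMM scaling. The remaining small regions had 1.98 tags in E2A-KO and 4.36 in Wt at 39.0 kb, and 0.7 in E2A-KO and 1.43 in Wt at 0.8 kb. Of the 4 lower calls at Blk, TMM scaling kept the 2 upstream regions and lost the first exon (log2 ratio -0.88) and intron 10 (-0.7).

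The adaptor Blnk was lower at 5 of its 7 regions. The region over its first exon (chr19:40993882-40994427) had 5.71 tags in E2A-KO and 38.6 in Wt, 6.75-fold lower (5.04 to 9.23). Just upstream, at -1.4 kb (chr19:40995376-40996512), it had 10.6 in E2A-KO and 60.1 in Wt, 5.67-fold lower (4.57 to 7.11). The intronic regions followed with 16.0 in E2A-KO and 44.5 in Wt at 31.1 kb (intron 4, chr19:40962947-40963990), 1.52 in E2A-KO and 7.02 in Wt at 16.3 kb, and 3.15 in E2A-KO and 8.71 in Wt at 14.6 kb (intron 1, chr19:40979434-40980431). The exceptions were the pair farthest upstream, with 6.3 tags in E2A-KO and 8.13 in Wt at -4.1 kb and 2.33 in E2A-KO and 5.2 in Wt at -4.5 kb. The region at -4.5 kb missed the call only through the added 1, since its tags were 2.23-fold lower (1.35 to 3.85). With TMM scaling Blnk kept 2 of its 5 calls, the first exon and -1.4 kb, and the log2 ratios in the introns were -0.56 at 31.1 kb, -1.0 (just short of 2-fold before rounding) at 16.3 kb, and -0.48 at 14.6 kb.

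Pik3ap1 was lower at every one of its 4 regions. Its promoter (chr19:41384436-41385644), the region with most Wt tags among all 28, had 22.7 tags in E2A-KO and 114 in Wt, 5.0-fold lower (4.31 to 5.83). The intergenic region at -6.0 kb (chr19:41390722-41391393) had 3.85 in E2A-KO and 24.5 in Wt, 6.37-fold lower (4.46 to 9.39). At 2.5 kb inside intron 1 it had 11.5 in E2A-KO and 30.8 in Wt, and at -33.0 kb (chr19:41417711-41418364) 3.38 in E2A-KO and 10.2 in Wt. With TMM scaling 2 of the 4 calls were kept, and those at 2.5 kb (log2 ratio -0.49) and -33.0 kb (-0.59) were lost.

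Dok3, the inhibitory adaptor, was lower at its promoter by a smaller ratio than Pik3ap1. The promoter region (chr13:55527206-55529745) had 42.8 tags in E2A-KO and 109 in Wt, 2.54-fold lower (2.27 to 2.85), and this call was lost with TMM scaling (log2 ratio -0.44). A small region 1.5 kb upstream, which overlaps the end of another transcript, had 2.91 tags in E2A-KO and 3.19 in Wt.

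Rasgrp3 had the lowest ratio of all 28 regions. The intron 1 region 7.5 kb from the start (chr17:75443057-75443693) had 3.96 tags in E2A-KO and 61.6 in Wt, 15.5-fold lower (11 to 22.6), and the one at 6.2 kb (chr17:75441981-75442216) had 0.93 in E2A-KO and 8.19 in Wt. Per kb of region, the strongest Wt region of each gene gave the following levels, highest in Wt first. Rasgrp3 at 7.5 kb had 6.22 tags per kb in E2A-KO and 96.7 in Wt, the Pik3ap1 promoter 18.8 in E2A-KO and 94.1 in Wt, and the Blk intron 10 region 23 in E2A-KO and 70.8 in Wt. Blnk at its first exon had 10.5 per kb in E2A-KO and 70.6 in Wt, the Btk intron 5 region 3.14 in E2A-KO and 46.4 in Wt, and Dok3 16.8 in E2A-KO and 42.8 in Wt.

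The authors also classed regions by whether they were open in Ebf1-KO. Of the 28 regions, 11 were open in Wt only, 10 were open in both Wt and Ebf1-KO, and 7 were in neither list. At least 2-fold lower in E2A-KO were 10 of the 11 open in Wt only, against 71.6% of all 821 such regions, 7 of the 10 open in both (40.5% of 2821), and 0 of the 7 in neither (7.33% of 1187).

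Histone marks and RNA polymerase II (PolII) were compared between Ebf1-KO and Wt at the 21 regions in those first 2 classes. H3K27ac, a mark of active promoters and enhancers measured by CUT&RUN, was lower at nearly all of them. It was at least 2-fold lower in Ebf1-KO at 19 of the 21 regions (37.4% of all 3642) and higher at 0 (1.15% of all), with a median log2 ratio of -1.98 over the 21 and -0.70 over all. With TMM scaling 13 of the 21 were lower (19.5% of all), with medians of -1.22 and 0. The class open in Wt only was set by accessibility in Ebf1-KO. It held 11 of the 21 regions, but only 821 of all 3642. Of these 11, 11 were lower in H3K27ac (69.2% of the class), as were 8 of the 10 open in both (28.1%). The 2 regions outside the 19 were the Btk promoter, with 12.6 tags in Ebf1-KO and 15.3 in Wt, and Blnk at -4.1 kb, with 12.4 in Ebf1-KO and 16.3 in Wt. The lowest ratio on the log2(value + 1) scale belonged to Blk at -2.5 kb, with 0.74 tags in Ebf1-KO and 17.5 in Wt, followed by the Btk intron 5 region with 1.48 in Ebf1-KO and 18.9 in Wt. In tags alone Rasgrp3 at 6.2 kb, with 0.19 in Ebf1-KO and 3.87 in Wt, was lower than the Btk region in ratio.

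**Figure D2:**
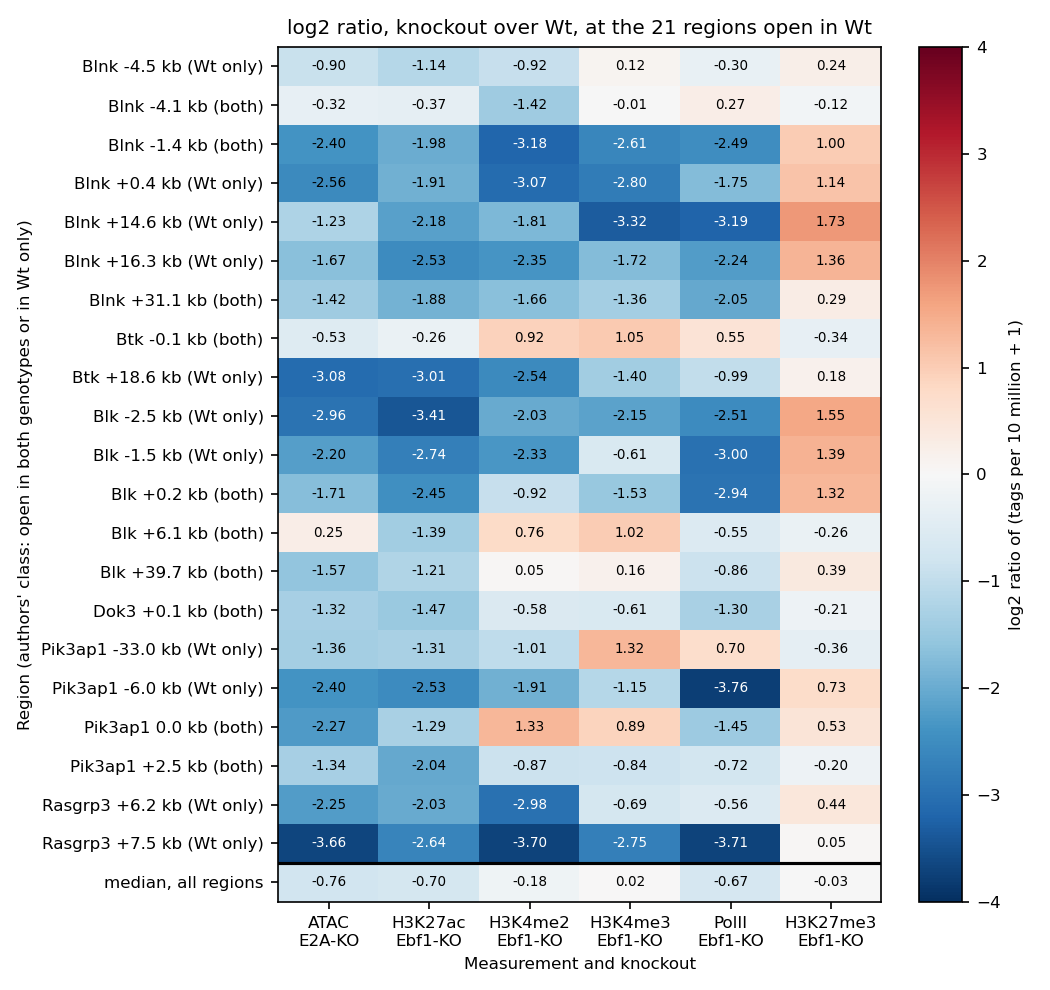
Log2 ratio of value + 1 for the 21 regions (down the page, by gene and distance to the start) in 6 comparisons (across), E2A-KO over Wt for ATAC and Ebf1-KO over Wt for the marks and PolII. The bottom line gives the median of all regions. The Blnk regions from -1.4 to 31.1 kb are blue (lower) in the first 5 columns, and the Btk promoter is past 2-fold lower in none.

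H3K4me2 and H3K4me3, methyl marks of enhancers and promoters, were lower at fewer of the regions. H3K4me2 was at least 2-fold lower in Ebf1-KO at 13 of the 21 regions (30.3% of all) and higher at 1 (7.58% of all), and H3K4me3 was lower at 10 (25.2% of all) and higher at 3 (15.4% of all). The medians of the log2 ratio were -1.66 over the 21 and -0.18 over all for H3K4me2, and -0.84 and 0.02 for H3K4me3. Among the 11 regions open in Wt only, 10 were lower in H3K4me2 (65.7% of all such regions) and 7 in H3K4me3 (54.0%). Among the 10 open in both, 3 were lower in each mark (20.0% and 16.8%).

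Blnk had lower levels of both marks across its start. H3K4me3 over its first exon was 5.51 tags in Ebf1-KO and 44.2 in Wt, 8.03-fold lower (6.45 to 10.1), and at -1.4 kb it was 12.7 in Ebf1-KO and 82.9 in Wt, 6.52-fold lower (5.63 to 7.59). H3K4me2 at -1.4 kb was 9.35 in Ebf1-KO and 93.0 in Wt, 9.95-fold lower (7.15 to 14.2). At the intron 1 region at 14.6 kb, which Ebf1 binds in the 230-238 line, H3K4me3 was 0.82 in Ebf1-KO and 17.2 in Wt, 21.1-fold lower (12.5 to 38.0).

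The promoters of Pik3ap1 and Btk went the other way. At the Pik3ap1 promoter H3K4me2 was 123 tags in Ebf1-KO and 48.6 in Wt, a ratio of 2.54 (2.15 to 3.01), and H3K4me3 was 242 in Ebf1-KO and 129.7 in Wt, a ratio of 1.86 (1.74 to 2.0). The same region had 25.5 tags of H3K27ac in Ebf1-KO and 63.9 in Wt, so the methyl marks and the acetyl mark differed in direction there. With TMM scaling its H3K27ac was under 2-fold lower (log2 ratio -0.54). The medians over all 2821 regions open in both had the same signs, at 0.09 for H3K4me2, 0.28 for H3K4me3 and -0.52 for H3K27ac. At the Btk promoter H3K4me3 was 84.6 in Ebf1-KO and 40.3 in Wt, a ratio of 2.1 (1.86 to 2.38), and H3K4me2 was 20.6 in Ebf1-KO and 10.4 in Wt, whereas at Btk intron 5 H3K4me2 was 1.68 in Ebf1-KO and 14.6 in Wt. The other regions higher in H3K4me3 were Blk at 6.1 kb, with 24.3 in Ebf1-KO and 11.5 in Wt, and Pik3ap1 at -33.0 kb, with 17.1 in Ebf1-KO and 6.26 in Wt. With TMM scaling, only the Pik3ap1 region at -33.0 kb was still called higher in H3K4me3 (13.4% of all).

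Dok3 differed by less than 2-fold in both marks. H3K4me3 was 201 tags in Ebf1-KO and 307 in Wt, 1.53-fold lower (1.45 to 1.61), and H3K4me2 was 188 in Ebf1-KO and 281 in Wt. Rasgrp3 at 7.5 kb was at the other end, with 1.2 tags of H3K4me2 in Ebf1-KO and 27.7 in Wt, 23.1-fold lower (9.61 to 72.5), and 0.97 tags of H3K4me3 in Ebf1-KO and 12.3 in Wt.

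H3K27me3, the mark laid down by Polycomb complexes, passed the 2-fold call as higher in Ebf1-KO at regions of Blnk and Blk. It was at least 2-fold higher at 7 of the 21 regions (16.9% of all) and lower at 0 (4.67% of all), with a median log2 ratio of 0.39 over the 21 and -0.03 over all. Of the 11 open in Wt only 5 were higher (25.1% of all such regions), and of the 10 open in both 2 were (14.5%). Blnk had 9.7 tags in Ebf1-KO and 2.22 in Wt at 14.6 kb, a ratio of 4.37 (2.51 to 8.11), 3.04 in Ebf1-KO and 0.57 in Wt at 16.3 kb, and 3.3 in Ebf1-KO and 1.15 in Wt at -1.4 kb. Its first exon had 1.36 in Ebf1-KO and 0.07 in Wt. Blk had 2.98 in Ebf1-KO and 0.36 in Wt at -2.5 kb, 3.3 in Ebf1-KO and 0.64 in Wt at -1.5 kb, and 5.05 in Ebf1-KO and 1.43 in Wt over its first exon, a ratio of 3.52 (1.73 to 7.91). Outside these 2 genes some ratios were near or above 2-fold in tags but missed the call on the log2(value + 1) scale. Pik3ap1 had 2.2 in Ebf1-KO and 0.93 in Wt at -6.0 kb, a ratio of 2.36 whose lower bound was 0.911, and 1.36 in Ebf1-KO and 0.64 in Wt at its promoter, and Rasgrp3 had 1.23 in Ebf1-KO and 0.64 in Wt at 6.2 kb. No test of a difference between the genes was made. These levels were low, and with a pseudocount of 5 only 1 of the 7 was still 2-fold higher. The Btk intron 5 region had 0.13 tags in Ebf1-KO and 0 in Wt, where a count of 0 allows up to 0.43 tags.

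PolII was at least 2-fold lower in Ebf1-KO at 12 of the 21 regions (39.7% of all) and higher at 0 (7.03% of all), with a median log2 ratio of -1.45 over the 21 and -0.67 over all. Of the 11 open in Wt only 7 were lower, near the share of that class (64.8%). Of the 10 open in both 5 were lower (32.4% of all such regions). TMM scaling left 10 of the 21 lower (25.7% of all) and put 2 higher (18.4% of all), the Btk promoter and Pik3ap1 at -33.0 kb. The calls lost were the promoters of Dok3 (log2 ratio -0.58) and Pik3ap1 (-0.75). The lowest level was at Rasgrp3 7.5 kb from the start, with 0 tags in Ebf1-KO and 12.1 in Wt. The count of 0 allows up to 1.03 tags (3 counts in that library), which is 11.8-fold below the Wt value taken without error. With the counting error of both libraries, the exact interval put the level at least 9.03-fold lower. Blnk had 10.3 tags in Ebf1-KO and 62.0 in Wt at -1.4 kb, 6.05-fold lower (4.07 to 9.26), and 12.0 in Ebf1-KO and 52.7 in Wt in intron 4. The Btk promoter had 7.87 tags in Ebf1-KO and 5.07 in Wt, a ratio of 1.55 whose interval (0.753 to 3.33) holds no difference.

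Read across assays, 8 of the 21 regions were at least 2-fold lower in all 5 of E2A-KO accessibility and Ebf1-KO H3K27ac, H3K4me2, H3K4me3 and PolII, as were 12.7% of all 3642. That share was not split by class. The 8 were 5 Blnk regions (-1.4, 0.4, 14.6, 16.3 and 31.1 kb), Blk at -2.5 kb, Pik3ap1 at -6.0 kb and Rasgrp3 at 7.5 kb. With TMM scaling 5 of the 8 were still lower in all 5 (7.80% of all). The Btk promoter was the 1 region lower in none of them, and with TMM scaling 6 regions were lower in none. All 17 regions lower in E2A-KO accessibility were also lower in Ebf1-KO H3K27ac, which is 100% of the 17 and 89.5% of the 19, in a set where 19 of 21 were lower in H3K27ac to begin with. Over all 3642 regions the overlap was 58.8% of those lower in E2A-KO accessibility and 74.8% of those lower in H3K27ac. With TMM scaling 8 of the 9 were shared, or 88.9% of the 9 and 61.5% of the 13, beside 59.2% and 58.7% over all regions. The 2 knockouts share no Wt library in this pair of measures.

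Ebf1 was bound in the 230-238 line at 8 of the 21 regions, or 38.1%, where 32.2% of all 3642 were. These 8 were 4 regions of Blk (39.7, 6.1, 0.2 and -1.5 kb), the promoter and the -6.0 kb region of Pik3ap1, the Dok3 promoter and the Blnk region at 14.6 kb. Btk and Rasgrp3 had none. At these 8 regions PolII was at least 2-fold lower in Ebf1-KO at 6 (53.0% of all 1172), BRG1 at 1 (32.4%) and EP300 at 2 (36.9%). Of the 3 open in Wt only, PolII was lower at 3 (79.3% of all such Ebf1-bound regions), BRG1 at 1 (64.5%) and EP300 at 1 (62.5%). Of the 5 open in both, PolII was lower at 3 (45.6%), BRG1 at 0 (23.5%) and EP300 at 1 (29.8%). With TMM scaling PolII was lower at 4 of the 8 (29.7% of all) and EP300 at 1 (26.5%). The PolII calls lost were the promoters of Pik3ap1 (log2 ratio -0.36) and Dok3 (-0.14). BRG1, the ATPase of a chromatin remodelling complex, was at least 2-fold higher at 1 (9.98%). EP300 is a histone acetyltransferase.

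Pik3ap1 at -6.0 kb was the 1 region lower in all 3. PolII was 2.74 tags in Ebf1-KO and 49.5 in Wt, 18.1-fold lower (8.92 to 42.9). BRG1 was 1.89 in Ebf1-KO and 20.1 in Wt, 10.6-fold lower (5.39 to 23.9), and EP300 was 5.33 in Ebf1-KO and 29.4 in Wt, 5.53-fold lower (3.75 to 8.34). The Pik3ap1 promoter differed less in BRG1, with 32.5 tags in Ebf1-KO and 42.8 in Wt, while its EP300 was 18.6 in Ebf1-KO and 49.9 in Wt, 2.68-fold lower (2.12 to 3.38), and its PolII 26 in Ebf1-KO and 75.3 in Wt.

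Blk showed the opposite for BRG1 in its first intron. At 6.1 kb BRG1 was 26.6 tags in Ebf1-KO and 5.68 in Wt, a ratio of 4.69 (3.13 to 7.24), the only one of the 8 regions at least 2-fold higher. The same region had lower H3K27ac, 16.1 tags in Ebf1-KO and 43.8 in Wt, and higher H3K4me2, 50.8 in Ebf1-KO and 29.6 in Wt. Over the Blk first exon BRG1 was 15.3 in Ebf1-KO and 11.7 in Wt, beside PolII of 2.39 in Ebf1-KO and 25.0 in Wt. Dok3 had 56.8 tags of BRG1 in Ebf1-KO and 49.2 in Wt beside 53.4 tags of PolII in Ebf1-KO and 133 in Wt. This PolII log2 ratio of -1.3 was near the median of -1.10 over all 1172 regions. With TMM scaling it was -0.14 at Dok3, and -1.94 at the Blk first exon. EP300 at Dok3 was 35.9 in Ebf1-KO and 70.6 in Wt, 1.97-fold lower (1.65 to 2.35).

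**Figure D3:**
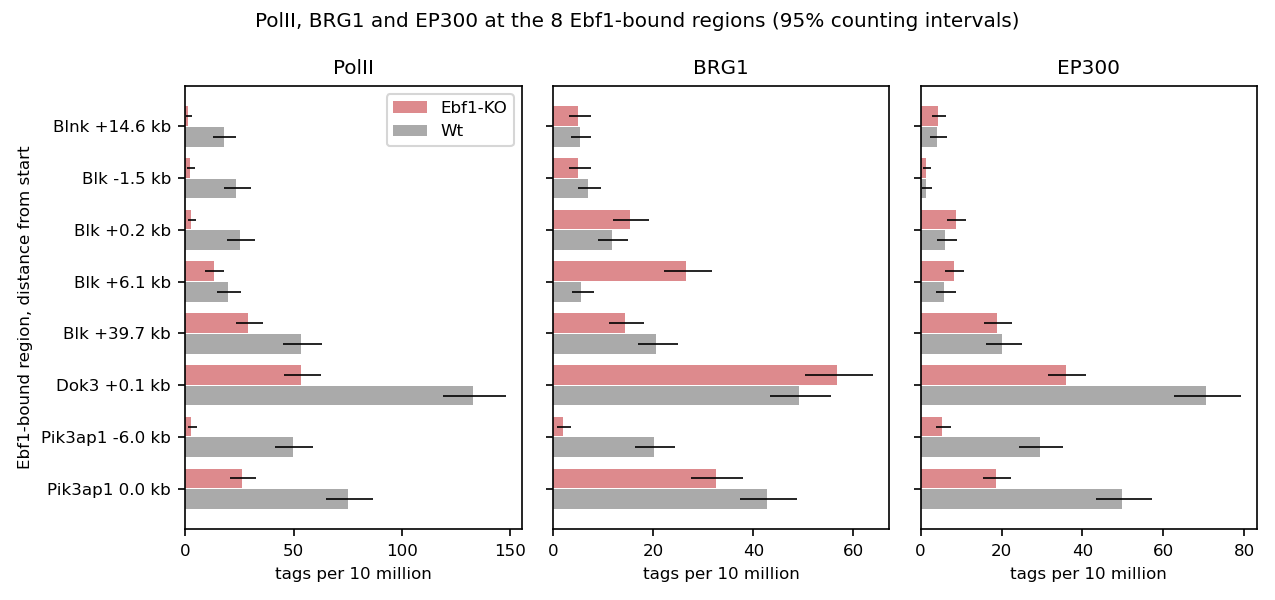
PolII, BRG1 and EP300 at the 8 Ebf1-bound regions, in tags per 10000000 on linear axes from 0, as bars with Ebf1-KO above Wt and exact 95% counting intervals. The Pik3ap1 region at -6.0 kb is lower in Ebf1-KO in all 3 panels, and the Blk region at 6.1 kb is higher in Ebf1-KO in the BRG1 panel.

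Over the 8 regions the median log2 ratio was -2.22 for PolII, -0.22 for BRG1 and -0.04 for EP300, beside -1.10, -0.29 and -0.56 over all 1172. The medians of the 8 turned positive with TMM scaling for BRG1 (0.05) and EP300 (0.40). The antibody label of the Wt EP300 sample names PolII with a question mark. Across the 1172 regions the Wt EP300 column correlated with Wt PolII at a Pearson r of 0.73 on the log2 scale and with Wt BRG1 at 0.71, and the Ebf1-KO EP300 column with Ebf1-KO PolII at 0.76 and with Ebf1-KO BRG1 at 0.82. All columns share the regions and their lengths, and whether the label is right was not tested.

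When Ebf1ER was switched on in Ebf1-KO cells, most of the 8 regions had more tags than at 0 h with values scaled to library totals, and few reached 2-fold. At each time 7 of the 8 were above 0 h, but not the same 7. The region below was Blnk at 14.6 kb at 6 h, the Blk first exon at 24 h and Pik3ap1 at -6.0 kb at 72 h. At 6 h of 4OHT 0 of the 8 were at least 2-fold higher than at 0 h (5.97% of all 1172), at 24 h 1 was (16.1%) and at 72 h 1 was (18.2%), and with TMM scaling 0 were at each time (3.41%, 5.97% and 6.83% of all). The median log2 ratio over the 8 was 0.53, 0.68 and 0.63 at 6, 24 and 72 h, beside 0.26, 0.47 and 0.50 over all regions, and the 3 ratios share the 0 h column. With TMM scaling these medians were 0.27, 0.16 and 0.06, beside -0.01, -0.05 and -0.06 over all, and 2, 1 and 4 of the 8 regions lay below their 0 h level. The headers give nearly the same library total for 6 h (34710011 tags) and 72 h (34710016 tags), and whether one of these totals is in error was not tested, although the values of both columns differ and came out as whole tags with them. The Pik3ap1 promoter had the steadiest course, with 25.2, 31.4, 42.1 and 60.8 tags at 0, 6, 24 and 72 h, a ratio of 2.42 at 72 h (1.92 to 3.05). The Dok3 promoter had 28.1, 40.6, 44.5 and 51.3 tags at these times, 1.82 times the 0 h level at 72 h (1.45 to 2.3). Blk in intron 10 had 35.1, 53.3, 62.8 and 60.8 tags.

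The regions that were nearly closed at 0 h gave few tags at any time. Pik3ap1 at -6.0 kb had 1.27, 2.3, 4.64 and 1.15 tags at 0, 6, 24 and 72 h, and its 24 h ratio of 3.66 (1.38 to 11.3) was the call at that time. Blk at -1.5 kb had 1.48, 2.88, 3.55 and 3.46 tags, and Blnk at 14.6 kb had 2.75, 1.73, 4.64 and 3.75. Their intervals at 72 h (0.189 to 3.83, 0.848 to 7.0 and 0.582 to 3.19 times the 0 h level, in the same order) all hold no change and a more than 2-fold rise alike. Blk over its first exon had 11, 16.7, 10.1 and 15.3 tags, and at 6.1 kb 20.3, 21.3, 30.6 and 28.8.

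**Figure D4:**
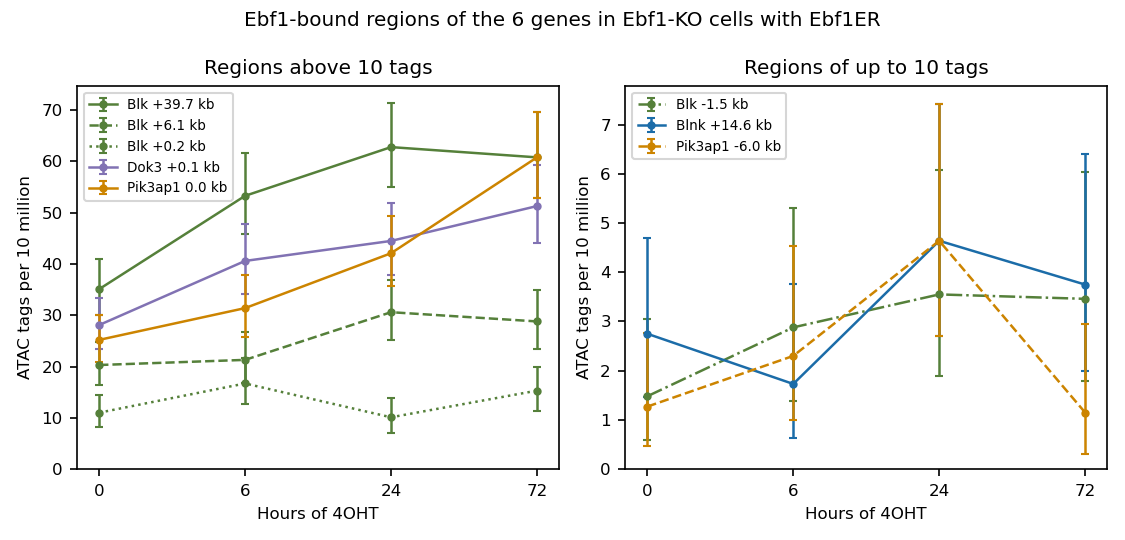
Accessibility of the 8 Ebf1-bound regions in the Ebf1ER cells, in tags per 10000000 on linear axes from 0, against hours of 4OHT (evenly spaced points, not to scale in time), with exact 95% counting intervals. The left panel holds the 5 regions above 10 tags and the right panel the 3 below. The Pik3ap1 promoter ends at 60.8 tags against 25.2 at 0 h, and the 3 weak regions stay below 5 tags.

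Fli1, an ETS factor, had 21 of its 27261 Wt peaks at these genes, and 9 of the 28 regions, or 32.1%, held one, where 36.8% of all 4829 regions did. The peak scores are those of the authors' peak caller, with a median of 16.7 over the list, and 15 of the 21 were at or above it. The highest, 40.5, lay at the second Rasgrp3 promoter (chr17:75465354-75465706), which was not among the accessible regions of the 230-238 line. Next were 2 sites outside the table of accessible regions compared above, Pik3ap1 intron 2 at 39.9 kb (chr19:41344983-41345335, score 39.5) and Blnk intron 2 at 24.0 kb (chr19:40970395-40970747, score 37.6). The Btk intron 5 region, the Rasgrp3 region at 7.5 kb and the Pik3ap1 promoter held peaks with scores of 17.6, 21.9 and 31.4.

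Ikzf1, a zinc finger factor that shapes lymphoid development, had 6 of its 5741 Wt peaks here, 5 at Pik3ap1 and 1 at Blk. Each of the 6 overlapped a Fli1 peak and an accessible region of the 230-238 line. The same shares over all 5741 Ikzf1 peaks are not given here, so the overlap is not read as particular to these genes. The Blk peak lay in the intron 10 region (score 6.66, list median 7.05) and was the only one in the 28 regions, or 3.57%, where 11.8% of all regions held one. The highest at Pik3ap1 had a score of 9.01 in exon 3 (chr19:41332197-41332381), and another of 8.23 lay at -57.5 kb.

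In the 230-238 line 59 of 65093 accessible regions were assigned to the 6 genes, 23 of them to Pik3ap1, 15 to Blk, 10 to Blnk, 7 to Btk, 2 to Dok3 and 2 to Rasgrp3. H3K4me3 PLAC-seq, which lists pairs of 5 kb bins in contact with at least one carrying H3K4me3, gave 78 of its 69898 interactions on these regions. Blnk had 27, Pik3ap1 18, Btk 12, Dok3 12, Blk 9 and Rasgrp3 0. The median over 16039 genes was 4, as many as 27 were reached by 1.46% of genes, and 24.5% of genes had none, as Rasgrp3 had. An interaction counts on any accessible region of a gene, and genes were not matched for their number of regions. Blnk with 10 regions and Rasgrp3 with 2 are therefore not ranked on equal terms. The median span of the 78 was 90 kb, beside 130 kb over the list.

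**Figure D5:**
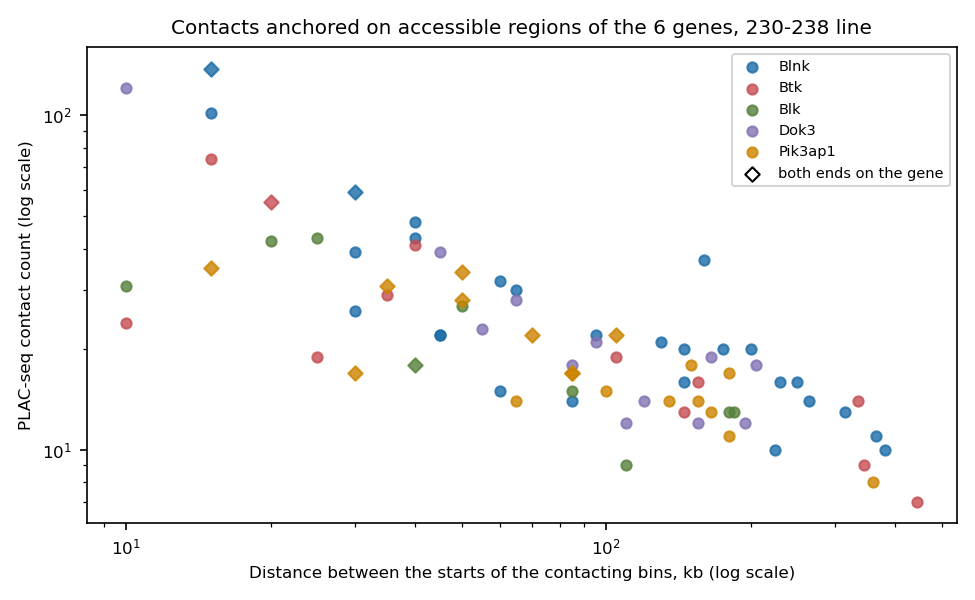
The 78 PLAC-seq interactions of the 6 genes in the 230-238 line, by the distance spanned in kb and the contact count, both on logarithmic axes, coloured by gene, with diamonds where both ends lay on the gene. Blnk holds the highest count, 138 contacts over 15 kb, and spans reach 445 kb at Btk.

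Several contacts joined bins that hold the regions described above. At Blnk the bin at chr19:40975001-40980000 met the bin of the first exon at chr19:40990001-40995000 with 138 contacts (q = 1.24e-24 in the authors' deposited list). The former bin holds the 16.3 kb region and part of the Ebf1-bound 14.6 kb region. A 5 kb bin cannot assign the contact to either. The first exon bin also met a bin 160 kb away at chr19:40830001-40835000, which holds a Fli1 peak, with 37 contacts (q = 1.24e-11). At Btk the intron 5 bin (chrX:134560001-134565000) met the promoter bin (chrX:134580001-134585000) with 55 contacts (q = 3.25e-17) in the 230-238 line. The intron 5 bin holds the region 14.8-fold lower in E2A-KO progenitors. The promoter bin holds the promoter region that differed 1.48-fold and the small Btk regions near it.

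At Pik3ap1, which has 23 of the 59 accessible regions, 9 of the 18 interactions had both ends on its own regions. The share at other genes with as many regions is not given here. The bin with the Fli1 score of 39.5 and an Ikzf1 peak (chr19:41345001-41350000) met the bin at chr19:41380001-41385000 with 31 contacts (q = 5.84e-08). That bin holds the intron 1 region at 2.5 kb and the downstream end of the promoter region, but not the RefSeq start. The bin of the start itself (chr19:41385001-41390000) met the bin of the -33.0 kb region (chr19:41415001-41420000) with 17 contacts (q = 0.00147). The bin of the Ebf1-bound -6.0 kb region (chr19:41390001-41395000) met the bin at -57.5 kb (chr19:41440001-41445000) with 28 contacts (q = 2.89e-05). At Blk the intron 10 bin (chr14:63375001-63380000), with Ebf1, Fli1 and Ikzf1 peaks, met the bin of its start (chr14:63415001-63420000) with 18 contacts (q = 0.019). The highest count at Dok3, 121 contacts, was with a bin 10 kb away at chr13:55535001-55540000 (q = 1.28e-11).

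In all, 12 of the 78 reached a bin with the promoter of another gene. The share over all 69898 interactions is not given here, so the count is not read as particular to these genes. Dok3 reached Grk6, Tmed9, Mxd3, Caml and a bin with Prelid1 and Rab24, and Btk reached Timm8a1, Hnrnph2 and Armcx4. Blnk reached Tctn3, Blk reached Fam167a with 42 contacts (q = 1.12e-06), and Pik3ap1 reached none. Contacts in the fetal liver progenitors were not measured.

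The rest of the pathway was counted from a list of 55 other genes, each by its region with most signal in the groups compared. Of these, 17 were present in the E2A-KO comparison, of which 12 were at least 2-fold lower in E2A-KO and 0 higher. By the same rule 5 of the 6 genes described here were lower, as were 40.3% of all 1787 genes, while 0.895% of all were higher. Among the receptor chains 5 of 5 were lower, Igll1 with 7.11 tags in E2A-KO and 97.4 in Wt and Cd79a with 8.04 in E2A-KO and 74.6 in Wt. Of the other kinases Prkcb, a protein kinase C, had 29.4 in E2A-KO and 91.6 in Wt, and Tec, a relative of Btk, had 7.58 in E2A-KO and 8.97 in Wt. Both inhibitory receptors present, Cd22 and Siglecg, were lower, with 10.8 in E2A-KO and 39.7 in Wt for Cd22. Of the exchange factors and enzymes 3 of 6 were lower, and Vav2 had 66.3 in E2A-KO and 76.3 in Wt. With TMM scaling 7 of the 17 stayed lower, with the receptor chains at 5 of 5, and 3 of the 6 genes described here (15.2% of all genes).

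In Ebf1-KO, H3K27ac was lower at 12 of 17 pathway genes and at 5 of these 6 genes, by the same rule, as at 32.0% of all 1623 genes. With TMM scaling it was lower at 7 and 2 (15.7% of all genes). H3K4me3 was lower at 8 of 17 and at 3 of 6 (19.3% of all genes), with 1 of the 6 higher (17.0%). At 72 h of 4OHT 5 of 12 pathway genes were at least 2-fold higher than at 0 h, 4 of them receptor chains, and 1 of 4 of these genes, as were 16.0% of all 799 genes. With TMM scaling 3 and 0 were (6.38% of all). The receptor chains that rose most were Igll1, with 4.65, 12.4, 19.1 and 36.6 tags at 0, 6, 24 and 72 h, and Cd79a, with 5.07, 13.8, 20.2 and 31.4. Vpreb1, the receptor chain not called, had 2.54, 1.15, 4.1 and 1.73 at its promoter. No test of the difference between the lists was made.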

How the data were processed

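In all 54 samples were labelled, in 40 groups. The submitters' processing notes list the build mm10 and these tools: HiC-Pro 2.11.1, Trim Galore 0.6.4, HOMER 4.10, SAMtools 1.9, Bowtie2 2.3.5 and deepTools 3.3.1, and MACS2, edgeR, FastQC and Picard with no version. Region tables hold a signal per region, which the authors scaled with HOMER to a library of 10000000 tags, per the file headers. Multiplied by the total in the header, values came out as whole tags within 0.1 tag (as steps of 0.5 tag for H3K27me3 and H3K27ac). The deposited PLAC-seq list gives a contact count and a q-value per pair of 5 kb bins, at a q threshold of 0.05. The deposited Fli1 and Ikzf1 lists give a peak score from the authors' caller. Distances are those of the authors' annotation, negative upstream, and regions listed more than once were counted once.

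The 6 genes and all lists were chosen with earlier results of these data known. Regions were named for these genes, for the fixed list of pathway genes (each by its region with the highest mean) and for the genes nearest to them in profile. Some items under these rules are not reported here. Per comparison log2(value + 1) ratios were computed and a ratio of at least 2 was counted. Values and ratios carry exact Poisson and exact conditional 95% intervals, and a count of 0 is read as up to 3 counts. Tags are not molecules, so intervals cover counting error only. TMM factors came from edgeR 4.0.16 (R 4.3.3) over each whole table. The rest ran in Python 3.11.15 with SciPy 1.17.1, pandas 2.3.3, numpy 2.4.6 and matplotlib 3.10.9. The counting was tested on simulated data. Alternatives were TMM or median centring, pseudocounts of 0.5 and 5, a minimum of 10 tags, and other overlap, score and q limits. PolII over all open regions and the medians under each setting were added after seeing the data.

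The header of the Wt ATAC values speaks of 6 libraries and a size of 180, while 3 Wt samples are labelled. Tests across replicates could not be made on such columns. The 2 ATAC value columns of Ebf1-KO and Pax5-KO without labelled samples, and input and IgG libraries, were not used here.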

Additional observations from a re-analysis of the deposited data

How the results depend on the processing

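Of the counts of regions, peaks and interactions, 53 alternative values lay within 1.5 times the reported count and 16 did not. Of the ratios of single regions, 681 stayed inside their counting interval or barely moved, and 209 did not. Of the medians over regions, 56 moved by no more than the standard deviation of the regions' ratios and 4 moved further. Medians could change sign inside that wide band, as those for BRG1 and EP300 did with TMM scaling. No called value changed sign. Regions lower in E2A-KO accessibility fell to 9 of 17 with TMM factors and to 9 when centred on the median of all regions, which removes the shift of all regions. Regions higher at 24 h (1) became 0 with TMM factors, 0 when centred, 2 with a pseudocount of 0.5 and 0 with 5, and at 72 h (1) 0 with TMM factors, 0 when centred and 2 with a pseudocount of 0.5. A pseudocount of 5 left 5 of 10 lower in H3K4me3 and 1 of 7 higher in H3K27me3. EP300 kept 1 of 2 with TMM factors and 1 when centred. Interactions numbered 51 at q of at most 0.01 and 25 on promoter-TSS regions alone. The single Ikzf1 region became 0 with peaks at or above the list's median score. The causes were not tested beyond what each setting changes by construction. No paired analysis was possible because each group was 1 pooled or single column, and leaving out a replicate could not be run for the same reason. Depth limits regions under about 5 tags, whose intervals span several-fold.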

Other observations

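Over the 11 comparisons measured at Ebf1-bound regions, the genes nearest to each of these genes in profile were named by the distance between their log2 ratios (Euclidean, 804 genes, each by 1 region). For the Pik3ap1 promoter the nearest was E130215H24Rik at a distance of 1.11, where the median distance to all genes was 4.02. For the Blk intron 10 region they were Epb41l4b at 1.14 and Dcbld2 at 1.15 (median 3.09). For the Dok3 promoter they were Tceb3 at 1.27 and Dennd2d at 1.28 (median 3.35), and for the Blnk region at 14.6 kb Impdh1 at 1.7 and Rsph9 at 1.71 (median 5.5). Btk and Rasgrp3 have no Ebf1-bound region and no value here.

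Of the 59 accessible regions of these genes in the 230-238 line, 31 were not in the table compared between genotypes, 19 of them at Pik3ap1. Accessibility of those 31 regions in the knockouts was not analysed here.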
